A study of Homo sapiens with 6 samples.

Results

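Open chromatin was compared between MCF10A cells given zinc and untreated MCF10A cells, in 4 of the 6 libraries of an ATAC-seq series. MCF10A is a human mammary epithelial line that is immortal but not tumorigenic, here of wild-type genotype in every group. Cells stood in a phosphate-free buffered salt solution for 30 min and then received 30 µM ZnCl2 for 30 min (ZnCl2, 2 libraries) or no addition (Control, 2 libraries). A further 2 libraries received 50 µM of the zinc chelator TPA for 30 min and are used only for orientation. The open regions listed for the 4 libraries were merged on chromosomes 1 to 22 and X wherever they overlapped or touched, which gave 46543 merged regions, of which 16566 (35.6%) were called in all 4 libraries.

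ATAC-seq inserts sequencing adapters with a transposase into DNA that is not covered by nucleosomes, so that promoters, enhancers and insulators in use stand out as open regions. Cells hold most of their zinc bound to proteins. When free zinc rises, the zinc-finger protein MTF1 binds metal response elements (MRE) and turns on metallothionein genes, which encode small zinc-binding proteins, and SLC30A1, which encodes a zinc exporter of the plasma membrane. SLC39A genes encode zinc importers, and a large share of human transcription factors, the insulator protein CTCF among them, fold around zinc.

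The sequences below show what kinds of region are compared. The first pair are RefSeq promoters (GRCh38.p14, from 250 bases before to 50 after the gene start, read 5′ to 3′ on the strand of the gene) of genes that MTF1 is known to control, with matches to the MRE core, TGCGCNC or TGCACNC on either strand, in capitals. The MT2A promoter (chr16:56608334-56608633, plus strand) held 8 matches and that of SLC30A1 (chr1:211579112-211579411, minus strand) held 2. An MRE match was present in 29.6% of 34961 RefSeq promoters of this length, and 4 or more matches in 0.601%. The last sequence is the central 300 bases of a region near METRNL (chr17:83073841-83074140, hg38, plus strand), shown as an example of a GC-rich region outside genes that ranked higher in both ZnCl2 libraries. It was searched for the AP-1 element TGACTCA on either strand. It has a GC content of 67.3% and no AP-1 match, so it holds no capitals. None of these motifs is contained in another.
MT2A promoter: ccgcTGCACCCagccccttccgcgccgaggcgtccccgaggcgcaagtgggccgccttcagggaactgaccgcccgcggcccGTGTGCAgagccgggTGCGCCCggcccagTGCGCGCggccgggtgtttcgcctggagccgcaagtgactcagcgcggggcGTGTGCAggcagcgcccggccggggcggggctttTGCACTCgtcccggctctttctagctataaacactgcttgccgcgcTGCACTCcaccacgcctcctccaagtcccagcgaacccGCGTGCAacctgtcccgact
SLC30A1 promoter: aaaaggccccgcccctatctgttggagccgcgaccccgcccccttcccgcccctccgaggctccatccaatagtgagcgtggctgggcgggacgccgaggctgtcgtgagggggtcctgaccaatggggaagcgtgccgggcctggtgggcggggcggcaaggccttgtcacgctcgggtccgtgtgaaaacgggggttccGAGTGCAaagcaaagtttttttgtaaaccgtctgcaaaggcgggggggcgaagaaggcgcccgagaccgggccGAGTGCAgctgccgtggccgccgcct
region near METRNL: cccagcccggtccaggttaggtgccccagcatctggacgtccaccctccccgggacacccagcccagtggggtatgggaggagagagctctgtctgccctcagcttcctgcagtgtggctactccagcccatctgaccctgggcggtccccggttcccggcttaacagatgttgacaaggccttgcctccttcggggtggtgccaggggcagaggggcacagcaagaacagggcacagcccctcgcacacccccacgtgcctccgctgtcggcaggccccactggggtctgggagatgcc

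The 4 lists differed in length and in the width of their calls, and not by group. Control replicate 1 gave 24731 calls and Control replicate 2 gave 44164, while ZnCl2 replicate 1 gave 37610 and ZnCl2 replicate 2 gave 18883. The shortest and second longest lists were thus both from ZnCl2. The calls covered 35.2, 93.1, 64.1 and 44.4 Mb in the same order, and their median width was 1220, 1760, 1450 and 2070 bp. ZnCl2 replicate 2 therefore held the fewest and the widest calls, and 90.1% of its calls fell in the regions shared by all 4 libraries, against 39.1% for Control replicate 2. It also listed no call over 21.5 Mb of chromosome 20, where the other 3 libraries held 294, 473 and 445 calls, so the stretch from 28.5 to 50.0 Mb was left out for all. Read counts are not part of these lists, and the depth behind a call is therefore unknown. The study's text calls its replicates biological in one place and technical in another, so p-values below measure only the spread between these libraries.

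The calls were checked against marker genes of the labelled cell type. Of 12 basal mammary epithelial markers, 5 had a promoter called in all 4 libraries (among them ITGB4 and LAMB3, which encode parts of the hemidesmosome and its laminin, SFN and DSC3). A further 6 were called in some, the keratin genes KRT5, KRT14, KRT17 and KRT6A, with CDH3 and EGFR, all uncalled in ZnCl2 replicate 2. TP63, at the start of the gene, was called in none. Control replicates 1 and 2 called 9 and 11 of these promoters, and ZnCl2 replicates 1 and 2 called 11 and 5. The low count of ZnCl2 replicate 2 goes with its short list. Of the luminal set, the keratin genes KRT8 and KRT18 were called in every library, with the same percentile at both genes. The hormone receptor genes ESR1, PGR and PRLR were called in none. No endothelial marker of 4 was called, and 1 of 5 hematopoietic (CD14) and 1 of 5 fibroblast and muscle markers (COL1A1) were called in every library, the same in Control and ZnCl2. Of 4 hepatic and neural markers, only GFAP was called, in ZnCl2 replicate 1 alone.

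Few regions were called in both libraries of one group and in neither of the other. Only 85 regions were called in both ZnCl2 libraries and no Control library, and 868 in both Control libraries and no ZnCl2 library. The 85 had a median GC content of 50.4% and 11.8% of them were promoters (within 1000 bp upstream of a gene start, or over it), whereas the 868 had a median GC content of 40.8% and 4.0% were promoters. By contrast, 9290 regions were called in Control replicate 2 alone and 8977 in Control replicate 2 and ZnCl2 replicate 1, the libraries with the longest lists. With each list shortened to its 18883 highest-scored calls, 840 regions were called only in both ZnCl2 libraries and 986 only in both Control libraries, so the first count moved with list length and the second hardly did. With 1 library left out in turn, the ZnCl2-only count was 1492 without Control replicate 2, 3035 without ZnCl2 replicate 2 and 163 without ZnCl2 replicate 1, and the Control-only count was 10158 without Control replicate 1 and 6823 without ZnCl2 replicate 1. No test was made of these counts.

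**Figure D1:**
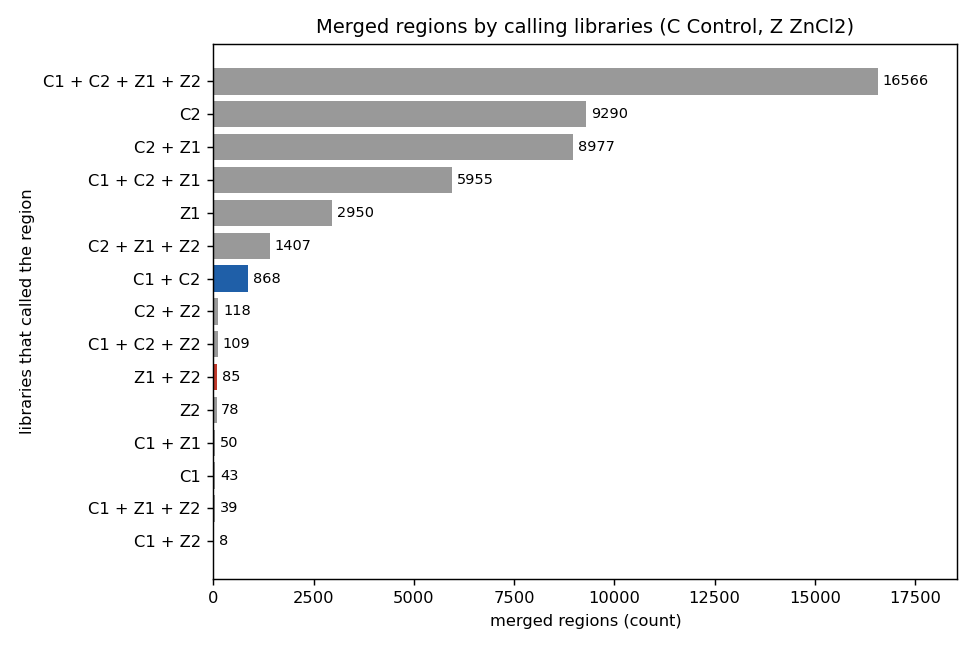
Number of merged regions (horizontal axis) for each combination of libraries that called them (C1 and C2, Control replicates 1 and 2; Z1 and Z2, ZnCl2 replicates 1 and 2). The 16566 regions called by all 4 libraries form the longest bar, and the 85 regions of both ZnCl2 libraries and 868 of both Control libraries, in color, are small beside the 9290 regions that only Control replicate 2 called.

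For the 16566 shared regions, the score of a call was turned into its percentile within its own list, higher for a higher score. This was done since the scores of separate lists share no scale. Tied scores took their mid-rank, so the lowest score of a list stands above 0. A percentile of 2.30 in Control replicate 1, or of 2.45 in ZnCl2 replicate 2, is the lowest of its list. In Control replicates 1 and 2 and ZnCl2 replicates 1 and 2 the median percentile of the shared regions was 63.6, 79.9, 76.0 and 53.2. These values follow list length, because a short list holds fewer weak calls below the shared ones, so a second percentile was computed among the 16566 shared regions alone (re-ranked). Across these regions, percentiles of the pair of Control libraries had a Spearman correlation of 0.860 and those of the ZnCl2 pair of 0.865, whereas the 4 Control-to-ZnCl2 pairings had values from 0.784 to 0.817. Libraries of one group were thus more alike than libraries of different groups, as a description over regions that share libraries and GC content.

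No region passed the test for a difference in percentile between ZnCl2 and Control. The limma test with Benjamini-Hochberg adjustment over all 16566 regions called 0 regions higher and 0 lower (0% each way) on either percentile, with a lowest adjusted p of 0.410 for the percentile within the whole list. At an unadjusted p below 0.05, 33 regions were higher (0.199%) and 278 lower (1.68%), and after re-ranking 998 and 1109. Regions were called in other settings of limma, with 23 higher and 59 lower for quantile-normalized log2 scores and 1 higher and 64 lower with the TPA libraries in the fit. With a library left out, its group holds a single library that is assumed to vary like the other group. In that setting 299 regions were called lower without ZnCl2 replicate 1, where the shortest list stands alone for ZnCl2, and 1 without ZnCl2 replicate 2, and re-ranking gave 2 calls higher without Control replicate 1 and 5 without Control replicate 2.

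The percentiles of the groups did not overlap in a larger number of regions. With 2 against 2 libraries, such separation is frequent also where groups do not differ, so these counts are a description. Within the whole lists, both ZnCl2 libraries lay above both Control libraries in 451 regions (2.72%; 220 of 7825 promoter regions, 2.81%) and below both in 2964 (17.9%; 1071 promoter regions, 13.7%). After re-ranking the counts were 3898 higher (23.5%; 2001 promoter regions, 25.6%) and 3534 lower (21.3%; 1333 promoter regions, 17.0%). Re-ranking gives every library the same mean rank, so a near balance of higher and lower regions is built into this scale. The median difference between ZnCl2 and Control was -4.42 percentile points within the whole lists and 0.379 after re-ranking. Shared by both scales were 416 regions higher (92.2% of the 451 and 10.7% of the 3898) and 1995 lower (67.3% of the 2964 and 56.5% of the 3534). Within the whole lists, 5067 regions were higher without Control replicate 2 and 5815 without ZnCl2 replicate 2, and 10406 were lower without Control replicate 1 and 11285 without ZnCl2 replicate 1. With equal list lengths, 2961 were higher and 2902 lower of 13294 shared regions.

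The base composition of a region went along with its difference. Of 5 groups of nearly equal size by GC content, the GC-rich regions (3313 regions, median GC content 60.0%) ranked above the GC-poor regions (3314 regions, median 41.8%) in every library, and by more in ZnCl2. The GC-rich class as tested held 3315 regions. After re-ranking, the median of the GC-rich regions exceeded that of the GC-poor regions by 14.1 and 11.1 percentile points in Control replicates 1 and 2 and by 31.4 and 27.3 in ZnCl2 replicates 1 and 2. Both ZnCl2 values lay above both Control values, at 29.4 ± 2.95 against 12.6 ± 2.13 (SD, n = 2), a difference of 16.8. Within the whole lists the gaps were 11.2, 4.83, 16.1 and 26.0 points in the same order, a difference of 13.0. An exact two-sided permutation test over the 4 libraries gave p = 0.333 on both scales (adjusted over 6 comparisons 0.4 after re-ranking and 0.5 within the whole lists), the smallest that 2 against 2 libraries can give, and so cannot pass 0.05. The direction held under each of 13 alternatives, with differences from 7.54 to 18.0 points. GC content can shape ATAC-seq libraries through amplification, whose part in this difference was not tested.

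The difference lay at both ends of the GC range. After re-ranking, the GC-poor regions had a median percentile of 39.3 and 38.9 in Control replicates 1 and 2 and of 27.2 and 29.7 in ZnCl2 replicates 1 and 2, and 35.0% of them were lower in both ZnCl2 libraries against 10.8% higher. The GC-rich regions had medians of 53.4 and 50.0 in Control and of 58.7 and 56.9 in ZnCl2, and 34.6% of them were higher in both ZnCl2 libraries against 11.9% lower. In the middle group (median GC content 51.1%) the medians were 55.4, 57.2, 56.4 and 55.1, and the groups overlapped. Promoters made up 68.4% of the GC-rich and 11.3% of the GC-poor regions, but the difference was larger outside them. Taken as the mean of the library medians in ZnCl2 minus that in Control, the re-ranked difference of GC-poor regions was -3.56 points in 376 promoter regions and -10.2 in 2938 others, and that of GC-rich regions was 3.62 in 2265 promoter regions and 10.9 in 1048 others.

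**Figure D2:**
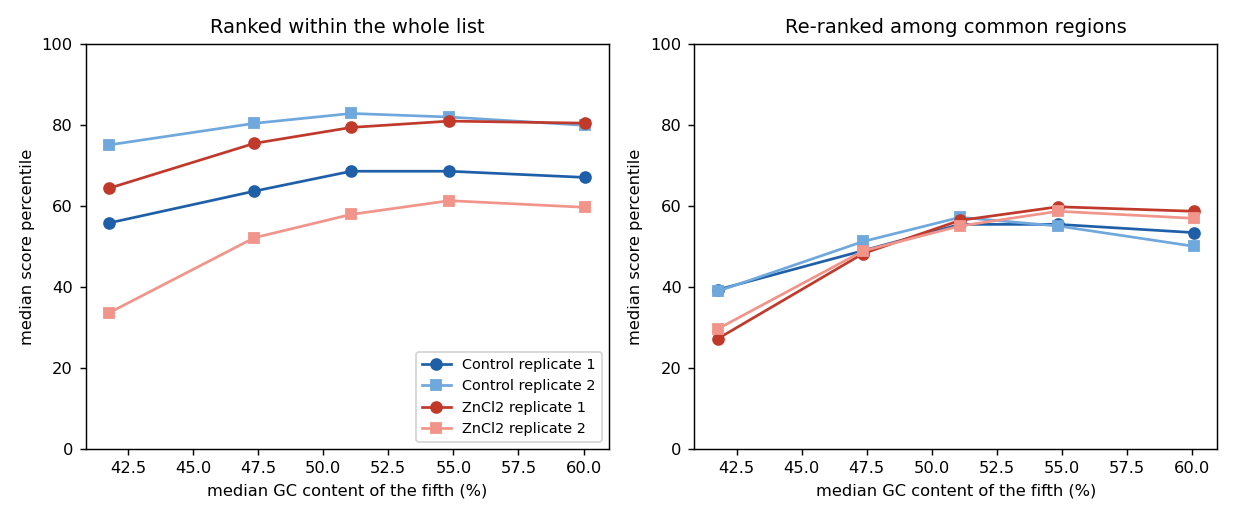
Median score percentile (vertical axis) of the shared regions in 5 groups by GC content (horizontal axis, median GC content of each group in percent), 1 line per library, ranked within the whole list (left) and among the shared regions (right). On the right, the ZnCl2 lines start at 27.2 and 29.7, below the Control lines at 39.3 and 38.9, and end at 58.7 and 56.9, above the Control lines at 53.4 and 50.0.

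Promoters as a class did not separate the groups. The median percentile of promoter regions exceeded that of other regions by 17.0 and 11.5 points in Control replicates 1 and 2 and by 13.5 and 23.3 in ZnCl2 replicates 1 and 2, and after re-ranking by 21.8, 27.4, 27.9 and 24.9. The groups overlapped on both scales (difference 4.20 and 1.84 points, exact permutation p = 0.667, n = 2). Without ZnCl2 replicate 2 the difference within the whole lists turned to -0.708.

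Motif matches, searched on both strands within 250 bp of the centre of each shared region, followed the same axis. An MRE match was present in 41.7% of the 16566 regions, in 51.7% of the 451 higher in ZnCl2 and in 37.6% of the 2964 lower. The AP-1 element, which binds FOS and JUN proteins and is frequent in enhancers of epithelial cells, was present in 20.1% of all shared regions, in 13.1% of the higher and in 26.9% of the lower regions. The higher regions had a GC content of 54.9% ± 6.1 (SD over regions) and lay a median of 3680 bp from a coding gene start, against 48.7% ± 7.1 and 19688.5 bp for the lower regions and 51.1% ± 6.89 and 6467.5 bp for all. So the regions higher in ZnCl2 were richer in GC and MRE letters, and the lower ones were poorer in GC, richer in AP-1 elements and more distal. In RefSeq promoters an AP-1 match was present in 4.92% and the CCAAT box (CCAAT, bound by NF-Y) in 34.6%.

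Regions with an MRE match exceeded those without one by 1.75 and 1.56 percentile points in Control replicates 1 and 2 and by 3.52 and 6.07 in ZnCl2 replicates 1 and 2 (6911 regions), and re-ranked by 2.28, 3.72, 7.34 and 6.46. ZnCl2 was above Control on both scales, by 3.14 and 3.90 points. Regions with an AP-1 match ranked below the rest in every library, with differences of -14.1 and -16.3 points in Control and -19.1 and -17.2 in ZnCl2 after re-ranking, while within the whole lists the groups overlapped. Regions with a CCAAT box differed from the rest by 2.28 and 2.42 points in Control and by -1.15 and -2.18 in ZnCl2 after re-ranking. Only 13 shared regions held the strict CTCF core used here, which 0.0658% of RefSeq promoters held. Their median differed from the rest by -7.07 and -5.45 points in Control and by 8.14 and 14.7 points in ZnCl2 after re-ranking, a difference of 17.7 between groups, and 7 of the 13 were higher in both ZnCl2 libraries against 1, near CTR9, lower, beside 23.5% and 21.3% of all shared regions. Within the whole lists, 1 of the 13 was higher and 2 were lower, beside 2.72% and 17.9% of all shared regions. Their median GC content was 57.1%, and within the regions in the upper 50% of each list the difference within the whole lists turned to -0.319. None of these 4 motif comparisons could pass the exact permutation test with n = 2, and their adjusted p-values were 0.4 after re-ranking and 0.5 or 0.667 within the whole lists.

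Individual regions were then named by the gap between the groups, that is by how far the lower ZnCl2 percentile exceeded the higher Control percentile or the reverse. The 12 regions with the largest gap upward had gaps from 18.6 to 31.6 points, with 17.8 for the next region outside, and the 12 with the largest gap downward had gaps from 41.6 to 61.4, with 41.3 for the next. Each is a description, since the gap chose them, and every adjusted p in limma was 1.00. All 24 kept groups that did not overlap after re-ranking. Their scores ran from 30 to 117, in lists whose median score was 44 to 54 and whose highest was 2346 to 6011, so large differences in percentile rest on a narrow range of scores. Only 1 of the 24 was called in all 4 libraries at equal list length.

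The largest upward gap was at the promoter and a coding exon of PTGS1 (chr9:122369951-122371720), which encodes the constitutive cyclooxygenase COX-1. Its percentile was 2.30 and 18.4 in Control replicates 1 and 2 and 59.3 and 50.0 in ZnCl2 replicates 1 and 2, and neither TPA library called it. Both ZnCl2 values were above both Control values, with a difference of 44.3 (SE 31.3). The region between genes near METRNL, which encodes a secreted meteorin-like protein, spans chr17:83072291-83075690 and lies 3919 bp from the start of METRNL. It had percentiles of 43.9 and 37.0 in Control and 85.3 and 71.2 in ZnCl2, and of 25.1 and 11.2 in TPA, the lowest of the 6 libraries. A region 53721 bp from HNRNPU, whose product scaffolds nuclear RNA (chr1:244918281-244919950), had 29.4 and 27.6 in Control and 83.7 and 57.9 in ZnCl2. The NEMF promoter region (chr14:49851992-49855141), of a gene that acts on stalled ribosomes, had 2.30 and 51.6 in Control and 75.5 and 74.6 in ZnCl2, with the Control libraries far apart. The remaining 8 lay outside genes 4928 bp from PNPLA5 (18.7, 31.6, 77.1 and 62.8), 2224 bp from GFAP, 125298 bp from SNTB1 and 80463 bp from NABP1, in an untranslated exon of CNIH4, in an untranslated exon of CHID1 with TSPAN4 the nearest coding start, in a coding exon of HERC2 and in an intron of LINC00243 with DDR1 the nearest coding start.

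Among the 12 higher regions, the median GC content was 50.8% (42.6% to 63.5%), 2 were promoters, 7 held an MRE match and 4 an AP-1 match. The TPA libraries, which took no part in the choice, called 5 of the 12 in both replicates and 4 in neither. Over all shared regions TPA replicates 1 and 2 called 97.5% and 98.4%, and over the 451 higher regions 93.1% and 93.3%.

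The largest downward gap was at the promoter of LINC02765, a noncoding RNA gene, in a wide region (chr1:225458121-225466790) 29196 bp from LBR, which encodes the lamin B receptor. Its percentile was 68.6 and 72.4 in Control replicates 1 and 2 and 5.12 and 7.16 in ZnCl2 replicates 1 and 2 (difference -64.3, SE 29.7). The TPA libraries had 80.5 and 94.7, so both ZnCl2 libraries stood far below the other 4. A region 89134 bp from KCTD3 had 75.1 and 82.8 in Control against 11.4 and 27.0 in ZnCl2. A region 1322 bp from MAP3K14, whose kinase drives the non-canonical NF-κB pathway, had 82.2 and 77.5 in Control against 22.4 and 30.4 in ZnCl2. In introns, the region in ME3, for a mitochondrial malic enzyme, had 77.3 and 75.1 against 27.0 and 30.4, and the region in FOXN3, for a forkhead repressor, had 53.6 and 59.6 against 8.30 and 11.6. A further 5 were distal. They lay outside genes 42166 bp from the start of ABI3BP (65.4 and 62.5 against 14.3 and 15.9), 259041 bp from SNX13 and 20875 bp from ZHX2, in an intron of RALYL 208215 bp from LRRCC1, and in an intron of the noncoding gene SAMD12-AS1 101025 bp from TNFRSF11B.

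The 12 lower regions had a median GC content of 41.5% (37.0% to 53.2%). Only 1 was a promoter, 4 held an MRE match and 4 an AP-1 match. Both TPA libraries called all 12, beside 97.5% and 98.4% of all shared regions. The 12 were chosen for low ZnCl2 percentiles, and in each both TPA percentiles lay above the higher ZnCl2 percentile. Over all 2964 regions lower in both ZnCl2 libraries the median percentile was 79.5 and 84.8 in Control, 71.4 and 52.1 in ZnCl2 and 83.3 and 86.2 in TPA, against TPA medians of 74.7 and 77.9 over all shared regions that TPA called. Over the 451 higher regions it was 71.5 and 79.4 in Control, 88.1 and 83.6 in ZnCl2 and 76.5 and 76.1 in TPA. In both sets the TPA values lay nearer to Control than to ZnCl2, or beyond Control, which is a description, since the ZnCl2 values chose the sets.

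**Figure D3:**
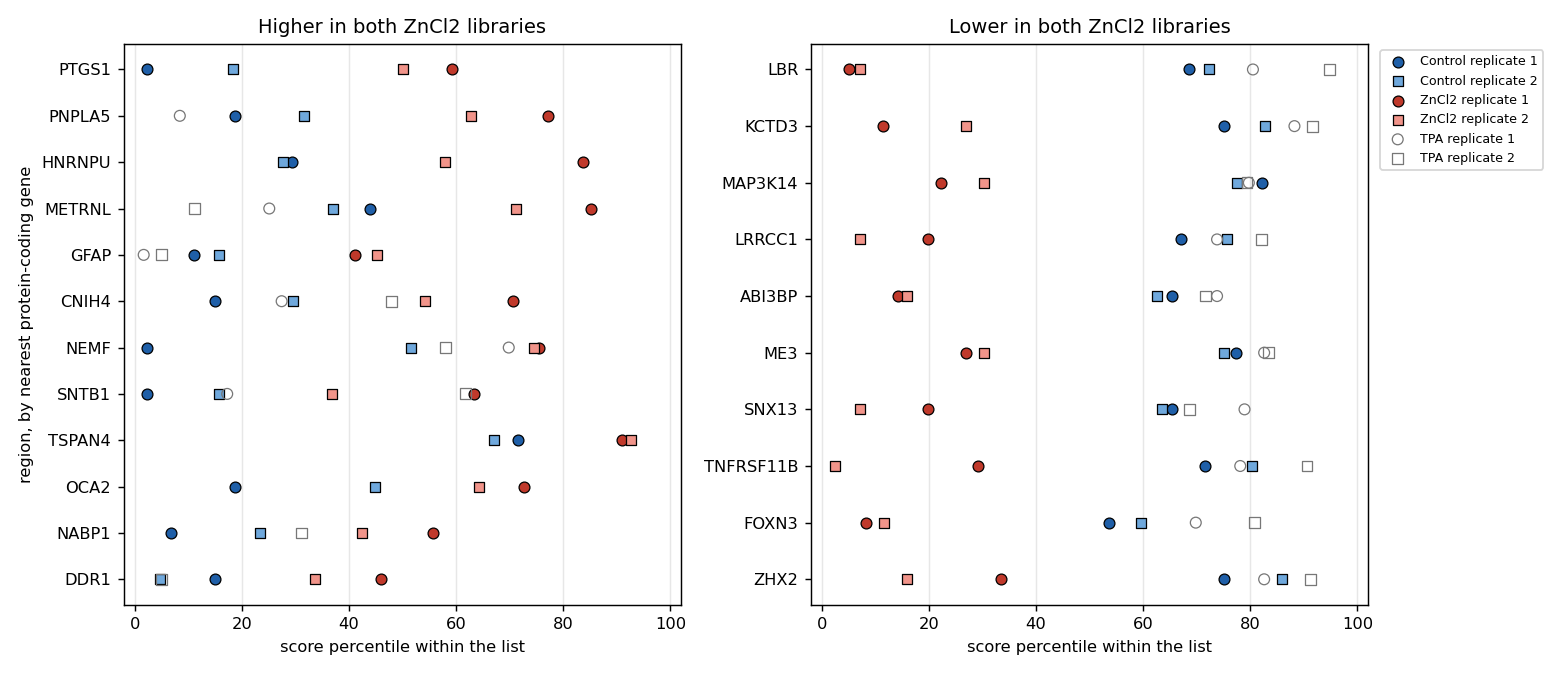
Score percentile within the list (horizontal axis) of the 12 regions with the largest gap upward (left) and of 10 of the 12 with the largest gap downward (right), named by the nearest protein-coding gene, 1 point per library that called the region. On the left the gaps between Control and ZnCl2 are 18.6 to 31.6 points, and on the right 41.6 to 61.4 points with the TPA points on the Control side in each.

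Among promoters, the 5 largest upward gaps were at PTGS1, NEMF, TRBV13, ZSCAN21 and P2RY1. P2RY1, a receptor gene for extracellular ADP, had percentiles of 38.5 and 64.3 in Control and 85.6 and 79.9 in ZnCl2, and ZSCAN21, for a zinc-finger factor, had 11.1 and 40.3 against 68.0 and 56.1. The 5 largest downward gaps were at LINC02765, LINC02868, CDK5RAP2, FAM193B and XPC-AS1. CDK5RAP2, which encodes a centrosomal protein, had 77.3 and 82.4 in Control and 41.1 and 23.4 in ZnCl2. The XPC-AS1 region by TMEM43 and the DNA repair gene XPC had 67.0 and 74.4 against 33.5 and 11.6. The gap chose these 10 promoters, so their groups stand apart by construction. At equal list length, 1 of the 5 upward ones (P2RY1) and 0 of the 5 downward ones were called in all 4 libraries. The ZnCl2 libraries were close to each other at NEMF and LINC02765 and farthest apart at FAM193B (49.2 and 7.16).

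No promoter region passed the percentile test after 30 min, those of the genes that zinc is best known to control included. Within the whole lists, 2.81% of all promoter regions were higher in both ZnCl2 libraries and 13.7% lower. After re-ranking these shares were 25.6% and 17.0%. Of 11 metallothionein genes, 2 had a promoter region called in all 4 libraries, 2 in some (MT1F and MT1X, both uncalled in ZnCl2 replicate 2) and 7 in none. The MT2A region (chr16:56605661-56612170), over the promoter printed above, had percentiles of 71.5 and 79.9 in Control replicates 1 and 2 and 83.2 and 81.5 in ZnCl2 replicates 1 and 2. Both ZnCl2 values were higher, by 6.65 points on average (SE 13.1), and re-ranked percentiles of 59.3 and 50.0 in Control and 64.6 and 80.5 in ZnCl2 differed by 17.9. Its calls were 5660, 6320, 6270 and 6250 bp wide. The TPA libraries, at 81.2 and 86.7, overlapped ZnCl2 and lay above both Control libraries. The MT1E region (chr16:56624681-56630380) had 35.7 and 71.0 in Control and 88.1 and 27.0 in ZnCl2, with ZnCl2 the highest and the lowest. The MT1E groups also overlapped after re-ranking, with a mean difference of 24.6, and its calls were 1430 and 3180 bp wide in Control and 3150 and 5700 bp in ZnCl2. The median difference of both regions was 5.42 points within the whole lists and 21.2 after re-ranking. Of the 2 metallothionein promoter regions called in all 4 libraries, MT2A was thus the only one with both ZnCl2 libraries above both Control libraries. The other genes of the 11 could not be compared in this way. By read counts, a measure not used here, the study reported the regions at both MT1E and MT2A as more accessible with ZnCl2.

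The SLC30A1 region was near the top of every list, at 99.3 and 99.5 in Control and 99.4 and 98.6 in ZnCl2, and the groups overlapped within the whole lists. Of the 10 SLC30A exporter genes, 6 were called in all 4 libraries, with 0 higher and 0 lower within the whole lists and 2 each way after re-ranking, SLC30A1 among the lower by a small margin (99.1 and 99.1 against 99.0 and 98.8). Over all promoter regions the shares were 2.81% higher and 13.7% lower, and 25.6% and 17.0% after re-ranking. Of the 14 SLC39A importer genes, 9 were called in all 4, with 0 higher and 2 lower. The lower ones were SLC39A4, the intestinal zinc importer (90.2, 94.1, 88.4 and 86.5 in the order above), and SLC39A1 (98.9, 99.4, 98.8 and 97.8), by 4.70 points on average for SLC39A4, while the groups all but touched at SLC39A1 (98.9 against 98.8 for the nearest libraries). After re-ranking, 2 of the 9 were higher and 1, SLC39A1, was lower, while the groups overlapped at SLC39A4 (85.9 and 85.8 against 75.7 and 86.0). Among 10 genes for MTF1 and zinc-dependent regulators, 6 were called in all 4. MTF1 itself had 71.5 and 88.3 in Control and 84.9 and 81.5 in ZnCl2 and overlapped, and SP1, a zinc-finger activator of GC-rich promoters, had 96.3 and 96.2 against 97.9 and 97.3 and was higher. At EHMT1, a histone methyltransferase gene, the region at the gene start had 92.1, 94.6, 93.9 and 79.1, and an intronic region (chr9:137722521-137723460) was called in ZnCl2 replicate 1 alone, at 77.1.

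**Figure D4:**
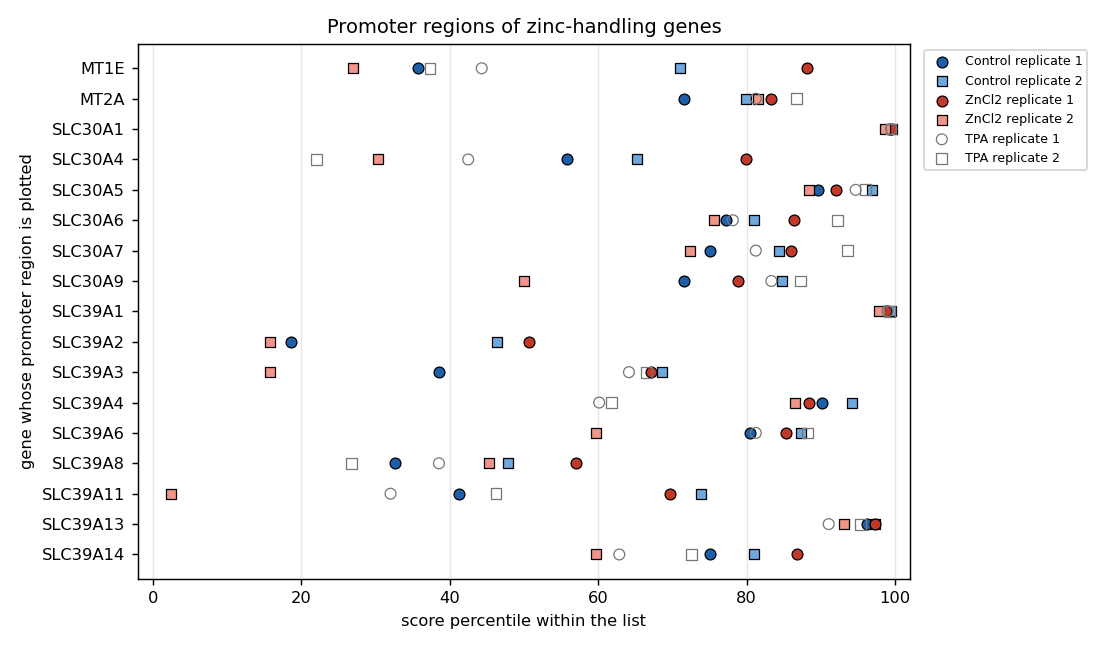
Score percentile within the list (horizontal axis) of the promoter regions of metallothionein, SLC30A and SLC39A genes called in all 4 libraries, 1 point per library that called the region. At MT2A both ZnCl2 points (83.2 and 81.5) lie above both Control points (71.5 and 79.9), and at SLC39A4 both lie below, at 88.4 and 86.5 against 90.2 and 94.1.

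Other gene lists were read against the same background of 2.81% of promoter regions higher and 13.7% lower within the whole lists, and limma called no member of any list. Of 14 genes for CTCF and the cohesin ring, which shape chromosome loops, all were called in all 4 libraries, with 1 higher and 5 lower, a median difference of -8.23 points against -2.65 over all promoter regions. The higher one was CTCF (96.3, 96.2, 98.2 and 96.5 in Control replicates 1 and 2 and ZnCl2 replicates 1 and 2). The lower ones were SMC1A, RAD21, the cleavable cohesin subunit (83.8, 95.2, 76.6 and 71.2), MAU2, of the cohesin loader, PDS5B, and ESCO1, a cohesin acetyltransferase (77.3, 90.4, 68.9 and 64.3). After re-ranking, 3 were higher (21.4%) and 6 lower (42.9%), beside 25.6% and 17.0% of all promoter regions, with a median of -6.98 against 1.09 over all promoter regions.

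Of 49 regions of ribosomal protein genes, 0 were higher and 12 lower, RPS12 among them (77.3, 80.9, 54.4 and 23.4), and after re-ranking 4 were higher and 12 lower. Of 24 immediate early gene regions, 0 were higher and 5 lower (FOSB, JUNB, KLF4, KLF10 and ZFP36), while after re-ranking 6 were higher (JUN, JUND, IER2, DUSP6, KLF2 and BTG2) and 3 lower. These shares are near those of all promoter regions (25.6% higher and 17.0% lower). The median difference of the list was -2.21 within the whole lists and -0.914 after re-ranking, against -2.65 and 1.09 over all promoter regions. Of 15 heat shock chaperone regions 1 was higher, HSF2, for a heat shock factor (89.7, 93.0, 96.8 and 95.4), and 1 lower, STIP1 (98.3, 98.6, 97.8 and 96.4). Of 12 regions of NRF2 targets, 0 were higher and 2 lower (KEAP1, whose product holds NRF2 in check, at 51.3, 84.0, 37.4 and 33.6, and SLC7A11, for a cystine importer). Of 9 basal epithelial regions, 0 were higher and 2 lower, S100A2, for a calcium-binding protein, among them (94.9, 94.4, 91.4 and 78.3). After re-ranking, 2 were higher and 2 lower in each of the heat shock, NRF2 and basal epithelial lists.

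The ZNF genes, most of which encode zinc-finger transcription factors, formed the longest list. Of 509 genes, 240 had a promoter called in all 4 libraries, in 230 distinct regions, of which 4 were higher (1.74%) and 33 lower (14.3%). After re-ranking, 54 were higher (23.5%) and 36 lower (15.7%), near the background of 25.6% and 17.0%. Within the whole lists, ZNF554 was among the higher ones (51.3, 52.9, 64.4 and 59.7) and ZNF524 among the lower (85.3, 90.2, 62.4 and 50.0), and the ZNF554 groups overlapped after re-ranking.

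Call width was tested in the same way, and 2 regions passed. The summed width of the calls in a region was narrower in ZnCl2 in 2 of 16566 regions (0.0121%) and wider in 0 (0%) by limma on log2 width with Benjamini-Hochberg adjustment. At an unadjusted p below 0.05, 34 were narrower (0.205%) and 113 wider (0.682%). Groups did not overlap in 382 narrower regions (2.31%; 185 promoter regions, 2.36%) and in 1883 wider ones (11.4%; 831 promoter regions, 10.6%), with a median log2 ratio of ZnCl2 to Control of 0.14 over all shared regions. The general direction rested on single libraries: the median ratio was -0.22 without Control replicate 1, with 811 narrower and 37 wider at an unadjusted p below 0.05, and 0.51 without Control replicate 2, with 26 narrower and 2165 wider.

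The first narrower region covers exons of KLRC2, KLRC3 and KLRC4, which encode NKG2 receptors of natural killer cells (chr12:10409601-10436530). Its calls were 16340 and 26930 bp wide in Control replicates 1 and 2 and 2600 and 820 bp in ZnCl2 replicates 1 and 2, and 34130 and 30660 bp in the TPA libraries. Both ZnCl2 calls were far shorter than the other 4, and Control was 14.4-fold wider (log2 ratio -3.84, SE 0.54, adjusted p = 1.64e-08 by limma). Its percentile was 83.8, 91.2, 77.8 and 59.7. The second lies over ZNF57 on chromosome 19 (chr19:2880721-2901780), a zinc-finger gene beside ZNF556. Its calls were 21050 and 20730 bp wide in Control, 2200 and 1640 bp in ZnCl2 and 23010 and 22650 bp in TPA, so Control was 11.0-fold wider (log2 ratio -3.46, SE 0.55, adjusted p = 2.05e-06 by limma).

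Each library held a single call in both regions. Of 10 pieces of sequence sampled along each, 2 occurred more than once in hg38 for the KLRC3 region and 3 for the ZNF57 region, and both gene families hold near copies, so the placement of reads there is uncertain. Neither call of narrowing was kept without any one of the 4 libraries or with the TPA libraries in the fit, although adding these leaves the log2 ratios as they are and alters only the estimated spread. With the replicate number as a block, pairing libraries of the same number, adjusted p was 0.105 for KLRC3 and 0.0834 for ZNF57 in limma, while with a crossed pairing 2 regions were called narrower. Wide calls were uneven between libraries: of the shared regions, 24 and 170 had calls of at least 10000 bp in Control replicates 1 and 2, and 72 and 91 in ZnCl2 replicates 1 and 2, and the groups overlapped.

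The 3 regions with the largest widening had an adjusted p of 1 in limma. They lay over ABCF1 and PPP1R10, near MRPS18B (890 and 870 bp in Control, 1760 and 6340 bp in ZnCl2), in an intron of PDE4B, which encodes a cyclic AMP phosphodiesterase (240 and 700 against 1040 and 2200 bp), and outside genes near KIF1A, for an axonal kinesin (330 and 1190 against 2100 and 2100 bp). The fold of ZnCl2 over Control was 3.80, 3.69 and 3.35. The 3 were taken among regions whose groups did not overlap, so wider calls in both ZnCl2 libraries were set by the choice.

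**Figure D5:**
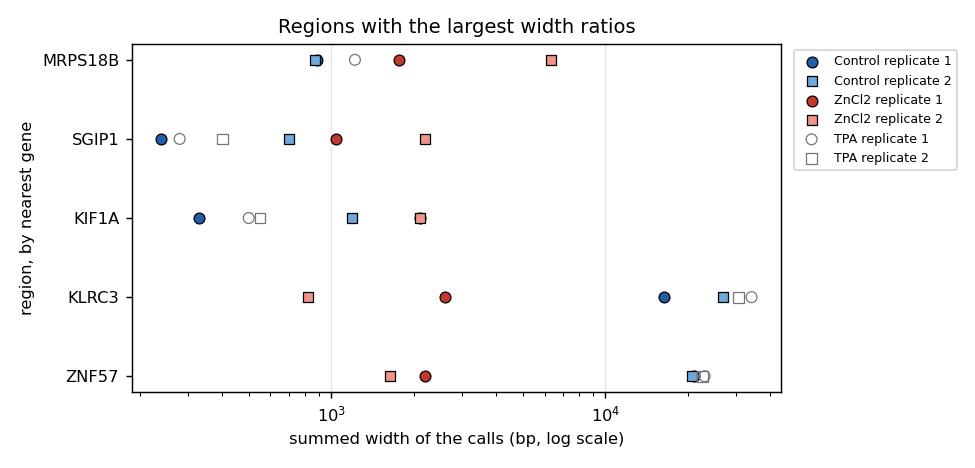
Summed width of the calls (horizontal axis, bp, log scale) in the 3 regions with the largest widening and the 2 that were called narrower in ZnCl2, named by the nearest gene, 1 point per library that called the region. At KLRC3 the ZnCl2 points lie at 2600 and 820 bp and the Control points at 16340 and 26930 bp, and at ZNF57 at 2200 and 1640 bp against 21050 and 20730 bp.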

How the data were processed

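Per the labels and the study's methods, the authors checked reads with FastQC 0.11.8, mapped pairs with HISAT2 2.1.0 to hg38, indexed them with SAMtools 1.8 and called open regions per library with HMMRATAC; each library was sequenced in 2 runs of the same pool, combined by the authors. The deposited lists give an interval and a whole-number score, at least 30 in every list; the meaning of that score's scale is not given in the sources used here, nor is depth per library, so no counting interval was computed.

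From the lists, calls were merged across the 4 libraries with Python 3.11.15 and pandas 2.3.3. A library's score in a region is its highest call, ranked within its list (ties at their mid-rank) or among the shared regions. limma 3.58.1 (R 4.3.3, empirical Bayes with a trend, no covariate) was fitted to percentiles and to log2 width over 16566 regions, with Benjamini-Hochberg adjustment at 0.05. The fit was checked on simulated data with noise of SD 4 percentile points or 0.15 in log2 width. Differences in these libraries could have a far larger SE (31.3 points at PTGS1), so the check does not measure power here. Class differences used exact permutation tests over libraries (SciPy 1.17.1). Genes were those of GENCODE also listed by RefSeq (40050, of them 19206 protein coding). Named regions were the 12 with the largest gap in each direction, 5 promoters each way and 3 by width each way. Some items that these rules name are not reported here. The members, gene lists and motifs were chosen with earlier results of these data known. Alternatives were other scores, scales, filters and list lengths, each library left out, a replicate block, the TPA libraries in the fit and the left-out stretch of chromosome 20 kept.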

Additional observations from a re-analysis of the deposited data

How the results depend on the processing

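Regions called higher in percentile numbered 0, and 1 with the TPA libraries in the fit, 23 with quantile-normalized log2 scores and 1 with a crossed pairing of replicates. Regions called lower numbered 0, and 64, 59 and 4 in the same settings, and 0 to 299 with a library left out. After re-ranking, 0 to 5 were higher with a library left out. Regions called narrower numbered 2, and 4 among regions with exactly 1 call per library, 0 where each library covers at least 50% (a filter that removes both regions by its construction), 0 with the TPA libraries in the fit, 0 to 0 with a library left out and 2 with the crossed pairing. Non-overlapping regions numbered 451 higher and 2964 lower. The higher ones came to 3898 re-ranked, 2961 of 13294 at equal list length, 189 of 8421 where each library covers at least 50% and 512 to 5815 with a library left out. The lower ones came to 1552 of 8004 regions in the upper 50% of each list, 1543 of 8421 where each library covers at least 50% and 3066 to 11285 with a library left out. Re-ranked, leaving out a library gave 6092 to 6373 higher and 5718 to 5833 lower; fewer libraries make non-overlap easier. Regions called only in both ZnCl2 libraries came to 840 at equal list length and 124 to 3035 with a library left out, and those called only in both Control libraries numbered 868, and 911 to 10158 with a library left out. The promoter difference reached -0.708 without ZnCl2 replicate 2 (range -0.708 to 9.10 over alternatives) and the CTCF difference -0.319 in the upper 50% of each list and 3.23 at equal list length, against 12.8. The MRE difference ranged from 1.87 to 4.41, the AP-1 difference from -7.13 to -0.334 and the CCAAT difference from -4.01 to -0.829. Re-ranking turned the sign of the median difference of 5 lists, among them SLC30A (-1.79 to 3.87), heat shock (-1.97 to 1.47), NRF2 (-6.25 to 0.995) and ZNF (-1.99 to 1.79), each by less than the spread between libraries. The cause of these shifts was not tested.

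Libraries of the same replicate number did not deviate together (correlation of deviations over regions -0.315 for percentile, 0.036 re-ranked and -0.042 for log2 width). With 2 pairs only, these values cannot decide whether the numbers pair the libraries. With the replicate block, 0 regions were called higher and 0 lower in percentile, 4 and 20 at an unadjusted p below 0.05 in limma, and 0 narrower in width.

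With 2 libraries per group, unknown depth and lists of 18883 to 44164 calls, an uncalled region cannot be told apart from one below a list's limit.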

Other observations

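The X chromosome stood out among chromosomes. Its 227 shared regions had a median re-ranked difference between ZnCl2 and Control of 5.44 percentile points, with 38.3% higher and 10.1% lower in both ZnCl2 libraries, at a median GC content of 51.8%, against 0.379 points over all 16566 regions at a mean GC content of 51.1%. Chromosome 15 followed for the share of higher regions, with 31.5% higher and 13.4% lower over 610 regions (median 3.30 points, GC content 51.3%), and chromosome 22 had 30.4% higher and 11.6% lower over 345 regions (2.92 points, GC content 55.5%). At the other end, chromosome 8 had a median of -1.53 points, with 17.6% higher and 28.3% lower over 904 regions, at a GC content of 48.2%. These are values over regions of the same 4 libraries, with no test.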
